A study of Homo sapiens with 6 samples.

Results

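The genes described here are 40 human genes with a very long genomic span, all found in a table of 17335 genes measured by RNA-seq in A549 cells, an established line from a human lung adenocarcinoma. The list was chosen by gene name and long span with the BRQ and DMSO values of these libraries known, and members with a mean under 0.5 FPKM over the 6 libraries count as not measured, which left 37 measured genes and 3 that were not (FHIT, IMMP2L and PARD3B). Just inside that limit lay SUPT3H, whose mean over the 6 libraries was 0.791 FPKM, and just outside it lay FHIT and IMMP2L with 0.309 and 0.308 FPKM. The treated cells had received BRQ, taken here to be the inhibitor of the pyrimidine synthesis enzyme DHODH that the series title speaks of, and the comparison cells had received the solvent DMSO, with 3 libraries each. Both groups were grown in F12K medium with serum, and no dose, exposure time or separate culture is given in the labels, so p-values reflect only how far these libraries differ, and that spread may be technical.

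RNA polymerase II copies a gene from start to end in a single pass, so a very long gene occupies a polymerase far longer than a short one, and nearly all of the RNA made is intron that splicing removes. Nucleotide supply, elongation factors, topoisomerases and protection from premature 3' end cleavage all bear on whether a polymerase reaches the end of such a gene. Several of the longest human genes, WWOX and FHIT among them, lie at common fragile sites, which break under replication stress.

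On RefSeq coordinates of GRCh38 the 40 members spanned 362 to 1504 kb with a median of 692 kb, against a median of 29.8 kb for the 12249 tested genes with a span. Their longest coding transcripts in GENCODE release 29 had 5 to 62 exons (median 23), and their exons made up 0.072% to 3.26% of the transcribed stretch (median 1.17%, against 11.1% over tested genes). The mature mRNAs had a median length of 7012 bases, against 3137 bases over tested genes, so the members stand apart far more by their introns than by their mRNAs. The longest intron of a member had a median of 178 kb, and that of WWOX was 779 kb. The members lie on 16 chromosomes.

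The libraries behind the values rested on 32195353 to 34908895 reads in BRQ and on 27789225 to 29644462 reads in DMSO, as worked back from the values. All 5 epithelial markers looked at (KRT8, KRT18, KRT19, EPCAM, CDH1) were above 1 FPKM and summed to 1024 to 1104 FPKM in BRQ and 651 to 664 FPKM in DMSO. Of 5 alveolar type II markers only LAMP3 was, and not in DMSO. The 5 summed to 1.64 to 2.01 FPKM in BRQ and 0.355 to 0.55 FPKM in DMSO. Both endothelial markers summed to at most 0.136 FPKM. Of the blood markers only CD68 exceeded 1 FPKM, and that list summed to 143 to 151 FPKM in BRQ and 45.5 to 53.2 FPKM in DMSO, while of the fibroblast markers only COL1A1 did (list sums 3.82 to 4.03 FPKM in BRQ and 1.15 to 1.68 FPKM in DMSO). The part of these marker differences in the changes of the very long genes was not tested. FPKM is a share of the counted RNA scaled to gene length, so less RNA of a gene per cell and more RNA of other genes cannot be told apart.

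Most of the very long genes were lower in BRQ. Of the 37 measured, 32 fell (86.5%), 1 rose and 4 were not called at a limma adjusted p under 0.05, where 35.4% of all 12258 tested genes fell and 44.3% rose (79.7% in either direction). The median log2 fold change of the 37, on FPKM + 0.5, was -0.87, against 0.07 over all tested genes. At least 2-fold falls were called for 17 of the 37, where 5.12% of all tested genes had one. In 34 of the 37 every BRQ library lay below every DMSO library (36.5% of tested genes did so), in FOXP1 every BRQ library lay above (44.9% of tested genes), and in RERE and CAMTA1 the groups overlapped. SMYD3 and SUPT3H reached 0.5 FPKM in no BRQ library and so were tested only through their DMSO values. The members had been listed with results of this comparison known, so these counts, and the adjusted p-values given for single members from the fit over all genes, are descriptions and no independent evidence of a direction. Summed over all 40, the members took 2218 to 2355 reads in BRQ and 4450 to 4509 reads in DMSO of every 1000000 counted.

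**Figure D1:**
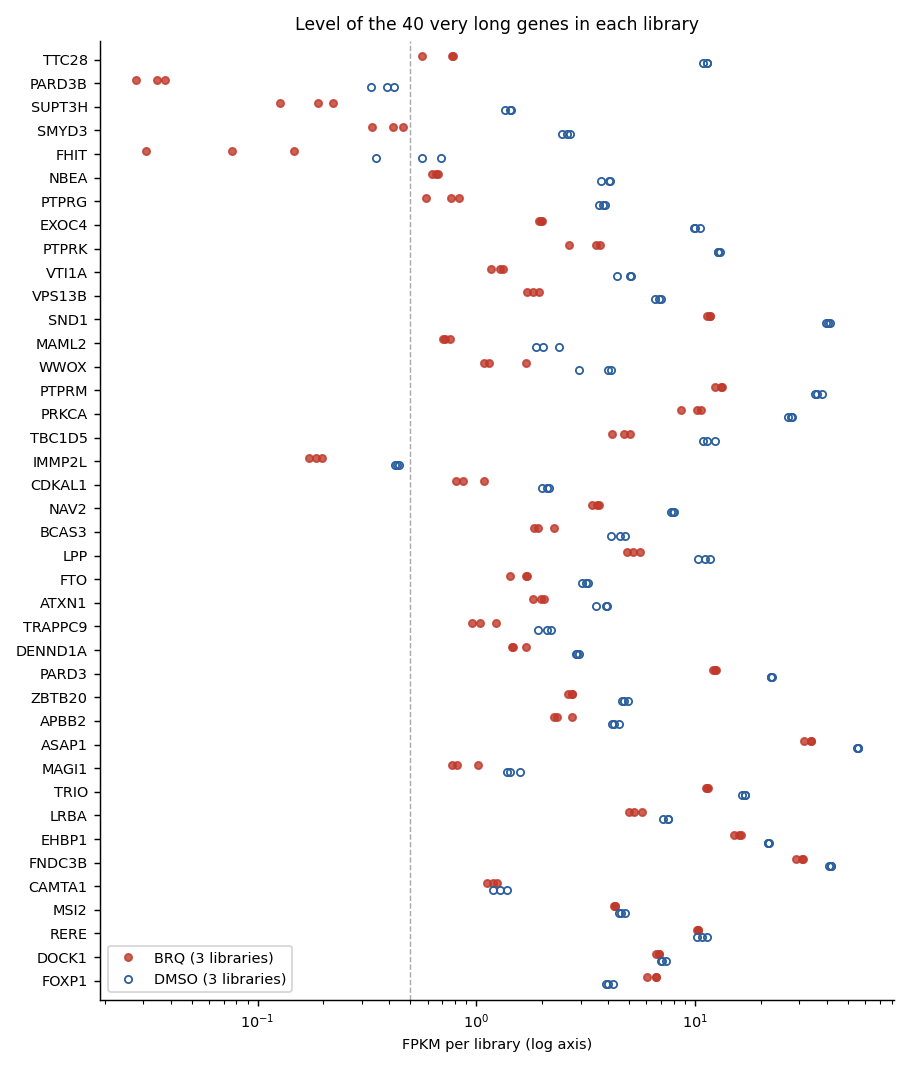
FPKM of each of the 40 very long genes in every library on a log axis, BRQ as filled points and DMSO as open points, ordered by the BRQ mean as a share of the DMSO mean; the dashed line marks 0.5 FPKM. The BRQ points lie to the left of the DMSO points in most rows, from TTC28 at 6.3% of its DMSO mean to FOXP1 at 159%.

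TTC28, a large tetratricopeptide-repeat protein gene on chromosome 22 (27978014 to 28679840, GRCh38), fell furthest. Its level was 0.781, 0.564 and 0.774 FPKM in the BRQ libraries, against 10.9, 11.4 and 11.3 FPKM in the DMSO libraries. The DMSO mean was 15.9 times the BRQ mean, and the log2 fold change was -3.28 (SE 0.09, adjusted p = 4.73e-10), resting on 294 to 437 reads per BRQ library and 4901 to 5487 per DMSO library. EXOC4, a subunit of the exocyst that tethers secretory vesicles, on chromosome 7 (133253078 to 134100951), had 1.99, 1.93 and 1.97 FPKM in BRQ, against 9.94, 10.5 and 9.96 FPKM in DMSO (log2 fold change -2.11). At the other end stood FOXP1, a forkhead transcription factor gene on chromosome 3 (70954708 to 71583978), with 6.03, 6.65 and 6.64 FPKM in BRQ and 4.02, 3.91 and 4.24 FPKM in DMSO (log2 fold change 0.61, SE 0.07, adjusted p = 1.19e-05). FOXP1 has 27 different transcript starts among its coding transcripts in GENCODE, the most of any member, and shares exons with another annotated coding gene on its strand, so its value is uncertain.

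The promoter windows of 4 members are shown to set the gene with the largest fall (TTC28) and another strong fall (EXOC4) beside a gene that was not called (CAMTA1) and the one that rose (FOXP1). Each window runs from 250 bases before to 50 bases after a transcript start in RefSeq on GRCh38.p14, the first one listed for the gene, 5′ to 3′ on the gene's strand, and capitals mark CpG sites. For TTC28, EXOC4 and CAMTA1 that start is the outer end of the gene, while for FOXP1, with 6 windows listed, it lies 250 bases inside the outer end, so that the FOXP1 window falls wholly within the gene. They lie at chr22:28679791-28680090 (minus strand), chr7:133252828-133253127 (plus), chr1:6785204-6785503 (plus) and chr3:71583679-71583978 (minus).
TTC28: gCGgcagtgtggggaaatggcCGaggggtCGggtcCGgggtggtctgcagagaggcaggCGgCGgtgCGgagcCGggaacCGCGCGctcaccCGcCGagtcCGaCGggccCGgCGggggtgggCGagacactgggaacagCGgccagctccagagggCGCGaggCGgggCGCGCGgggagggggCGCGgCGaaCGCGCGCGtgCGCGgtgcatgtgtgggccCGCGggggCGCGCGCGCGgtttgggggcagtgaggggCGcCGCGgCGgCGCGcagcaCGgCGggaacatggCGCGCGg
EXOC4: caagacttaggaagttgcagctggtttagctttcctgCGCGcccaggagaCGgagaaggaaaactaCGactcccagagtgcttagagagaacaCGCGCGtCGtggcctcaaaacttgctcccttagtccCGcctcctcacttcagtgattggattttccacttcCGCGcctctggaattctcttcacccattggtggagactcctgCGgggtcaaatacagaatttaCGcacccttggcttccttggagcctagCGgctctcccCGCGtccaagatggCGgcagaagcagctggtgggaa
CAMTA1: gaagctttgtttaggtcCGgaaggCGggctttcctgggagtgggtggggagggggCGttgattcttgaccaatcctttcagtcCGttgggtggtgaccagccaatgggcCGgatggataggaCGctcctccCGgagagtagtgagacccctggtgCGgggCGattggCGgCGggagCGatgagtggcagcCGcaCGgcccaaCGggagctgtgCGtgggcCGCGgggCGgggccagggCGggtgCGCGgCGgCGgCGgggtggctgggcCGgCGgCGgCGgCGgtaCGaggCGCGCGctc
FOXP1: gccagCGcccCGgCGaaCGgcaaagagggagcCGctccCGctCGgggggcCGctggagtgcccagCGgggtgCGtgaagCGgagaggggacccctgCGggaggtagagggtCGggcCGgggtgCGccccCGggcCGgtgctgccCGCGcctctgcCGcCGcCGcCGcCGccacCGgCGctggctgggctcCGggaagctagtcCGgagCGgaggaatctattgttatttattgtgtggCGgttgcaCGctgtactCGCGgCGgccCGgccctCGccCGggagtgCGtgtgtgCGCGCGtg
The TTC28 window has 52 CpG sites and 80.0% GC, that of EXOC4 17 sites and 55.7%, that of CAMTA1 34 sites and 71.3%, and that of FOXP1 41 sites and 75%. RefSeq windows were matched for 35 of the 40 members (not for PARD3, RERE, TRAPPC9, ASAP1 and VPS13B), with a median of 28 CpG sites and 66.0% GC, against 26 sites and 65.3% over 10058 tested genes with a window. The first listed start was the outer end of the gene for 28 of the 35 members (80.0%) and for 83.5% of those tested genes. On either strand GGGCGG occurred in 19 of the 35 (54.3%), against 70.8% of tested genes, CCAAT in 9 (25.7%), against 36.6%, and TATAAA in 1 (2.86%), against 5.7%. A match in these letters is no binding site, and a gene with several starts is read here at 1 of them.

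The 3 receptor protein tyrosine phosphatases, which remove phosphate from tyrosines at cell contacts and matrix, all fell. Over all tested genes 35.4% fell, as did 71.0% of the other genes of 400 to 800 kb and 64.3% of those of 800 kb and over. PTPRK had 3.69, 2.65 and 3.52 FPKM in BRQ, against 12.8, 13.0 and 12.8 FPKM in DMSO, a log2 fold change of -1.83 (SE 0.10). PTPRG had 0.589, 0.837 and 0.764 FPKM in BRQ and 3.64, 3.87 and 3.78 FPKM in DMSO (-1.80, SE 0.10). PTPRM, the most abundant of the 3, had 13.3, 12.3 and 13.1 FPKM in BRQ and 38.1, 36.0 and 35.6 FPKM in DMSO (-1.47, SE 0.05). In each gene the groups were apart by far more than their spread, although BRQ replicate 2 was the lowest BRQ library for PTPRK and PTPRM and the highest for PTPRG.

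Of the 12 genes of cell polarity, adhesion and the cytoskeleton 11 were measured, of which 10 fell and 1, DOCK1, was not called (median log2 fold change -0.71), where 35.4% of all tested genes and 71.0% of the other genes of 400 to 800 kb fell. Besides TTC28, NAV2, a microtubule-binding navigator, had 3.63, 3.37 and 3.56 FPKM in BRQ, against 7.75, 8.0 and 7.9 FPKM in DMSO (-1.06). LPP, a zyxin relative at focal adhesions, had 5.58, 4.90 and 5.23 FPKM in BRQ and 11.1, 11.7 and 10.3 FPKM in DMSO (-1.01). PARD3, the scaffold that sets apical polarity, averaged 12.3 ± 0.215 FPKM in BRQ and 22.4 ± 0.136 FPKM in DMSO (SD, n = 3 each; -0.84). These 3 genes kept 44.6% to 55.0% of their DMSO mean. Smaller falls were seen for the Arf GTPase-activating gene ASAP1 (-0.74), the amyloid precursor-binding adaptor APBB2 (-0.71), the nucleotide exchange factor TRIO (-0.54), the junction scaffold MAGI1 (-0.52), the fibronectin-domain membrane protein gene FNDC3B (-0.45) and EHBP1 (-0.45), an adaptor between endocytic vesicles and actin. DOCK1, an activator of Rac, had 6.84, 6.65 and 6.83 FPKM in BRQ and 7.04, 7.03 and 7.35 FPKM in DMSO (-0.07, SE 0.05, limma adjusted p = 0.245), so its groups lay apart but by a small step.

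All 9 genes of membrane traffic and autophagy fell (median log2 fold change -1.22), beside the same 35.4% of all tested genes and 71.0% of other genes of 400 to 800 kb. NBEA, a BEACH-domain protein of vesicle traffic, had 0.653, 0.670 and 0.627 FPKM in BRQ, against 4.11, 4.06 and 3.70 FPKM in DMSO (-1.95, SE 0.08), and an exon of it overlaps MAB21L1 on the opposite strand. VPS13B, a lipid transfer protein at the Golgi, had 1.82, 1.70 and 1.94 FPKM in BRQ and 7.02, 6.59 and 6.85 FPKM in DMSO (-1.66, SE 0.07). VTI1A, a SNARE of the trans-Golgi network, had 1.17, 1.28 and 1.32 FPKM in BRQ and 4.40, 5.04 and 5.11 FPKM in DMSO (-1.61, SE 0.08). With EXOC4, these 3 kept 16.4% to 26.7% of their DMSO mean. TBC1D5, a Rab GTPase-activating protein of the retromer pathway, fell by 1.22 on the log2 scale, the autophagy-linked BCAS3 by 0.99, DENND1A, an exchange factor for Rab35, by 0.74 and the TRAPP subunit TRAPPC9 by 0.71. LRBA, like NBEA a BEACH-domain gene and slightly longer (751 kb against 730 kb), moved least, with 5.70, 4.97 and 5.25 FPKM in BRQ and 7.51, 7.16 and 7.53 FPKM in DMSO (-0.45, SE 0.06).

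The 12 genes of transcription, chromatin and RNA were the most mixed: 8 fell, 1 rose and 3 were not called (median log2 fold change -0.81), where 35.4% of all tested genes fell and 44.3% rose. Of the other genes of 400 to 800 kb 71.0% fell and 19.6% rose, and of those of 800 kb and over 64.3% fell and 21.4% rose. SND1, a nuclease-domain coactivator and RNA-binding protein, had 11.7, 11.3 and 11.7 FPKM in BRQ, against 40.6, 39.8 and 41.3 FPKM in DMSO (-1.77, SE 0.04, adjusted p = 1.47e-10). SMYD3, a lysine methyltransferase, had 0.416, 0.333 and 0.460 FPKM in BRQ and 2.46, 2.68 and 2.59 FPKM in DMSO. SUPT3H, a subunit of the SAGA coactivator, had 0.220, 0.127 and 0.188 FPKM in BRQ and 1.42, 1.35 and 1.44 FPKM in DMSO, on 43 to 76 reads per BRQ library. For these low genes the pseudocount shrinks the fold: the log2 fold changes were -1.77 and -1.49, while the DMSO means were 6.39 and 7.87 times the BRQ means. The Notch coactivator MAML2 fell by 1.07, the tRNA-modifying enzyme CDKAL1 by 0.87, the corepressor ATXN1 by 0.81, the RNA demethylase FTO by 0.80 and the zinc finger repressor ZBTB20 by 0.72 on the log2 scale.

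The 3 genes of this class that were not called lay close to their DMSO level. CAMTA1, a calmodulin-binding transcription activator of 984 kb, had 1.24, 1.12 and 1.19 FPKM in BRQ and 1.19, 1.38 and 1.29 FPKM in DMSO (log2 fold change -0.08, SE 0.09, limma adjusted p = 0.404). RERE, an atrophin-family corepressor, averaged 10.3 ± 0.0212 FPKM in BRQ and 10.8 ± 0.557 FPKM in DMSO (SD, n = 3 each; -0.07, limma adjusted p = 0.230). MSI2, an RNA-binding protein of stem and tumour cells, averaged 4.29 ± 0.0214 FPKM in BRQ and 4.62 ± 0.156 FPKM in DMSO (-0.10, limma adjusted p = 0.177). Relative to the other tested genes of their span class the 3 stood 0.39 to 0.51 higher on the log2 scale. With TMM factors, which move the median of all tested genes to -0.04, DOCK1, RERE and MSI2 were called lower (log2 fold changes -0.18, -0.19 and -0.21), and with quantile normalization CAMTA1 was (-0.34).

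PRKCA, protein kinase C alpha, had 10.2, 8.66 and 10.7 FPKM in BRQ, against 27.8, 27.6 and 26.7 FPKM in DMSO (log2 fold change -1.44, SE 0.07). WWOX, an oxidoreductase and tumour suppressor on chromosome 16 (78099654 to 79212667), had 1.14, 1.08 and 1.69 FPKM in BRQ and 3.99, 2.96 and 4.15 FPKM in DMSO (-1.22, SE 0.15). WWOX had the widest error of the measured members, on 81 to 277 reads per library, and its groups still did not overlap. FHIT, a diadenosine polyphosphate hydrolase gene of 1504 kb, was below the measuring limit with 0.146, 0.0309 and 0.0760 FPKM in BRQ and 0.567, 0.347 and 0.686 FPKM in DMSO, on 6 to 118 reads. PARD3B, a relative of PARD3, had 0.0279, 0.0376 and 0.0347 FPKM in BRQ and 0.419, 0.392 and 0.329 FPKM in DMSO. IMMP2L, a peptidase of the mitochondrial inner membrane, had 0.184, 0.196 and 0.171 FPKM in BRQ and 0.443, 0.423 and 0.433 FPKM in DMSO. In all 3 unmeasured genes the BRQ libraries lay below the DMSO libraries, with no test.

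IMMP2L was unmeasured by FPKM although 221 to 233 reads per BRQ library and 456 to 464 per DMSO library fell on it, more than on WWOX. The gene length behind its FPKM, worked back from the values, was 37005 bases, 13.8 times the 2679 bases of its exons in GENCODE. Over the 40 members that ratio had a median of 1.32, and it was 3.90 for SUPT3H, 3.49 for SMYD3 and 3.17 for FHIT. Levels of different members are therefore not on quite the same scale. A ratio of FPKM means within a gene does not depend on the length, but a fold change on FPKM + 0.5 does, since a longer length lowers the FPKM. With a pseudocount of 0.1 the log2 fold change of SUPT3H was -2.45 and the log2 fold change of SMYD3 was -2.42, against -1.49 and -1.77 with 0.5.

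**Figure D2:**
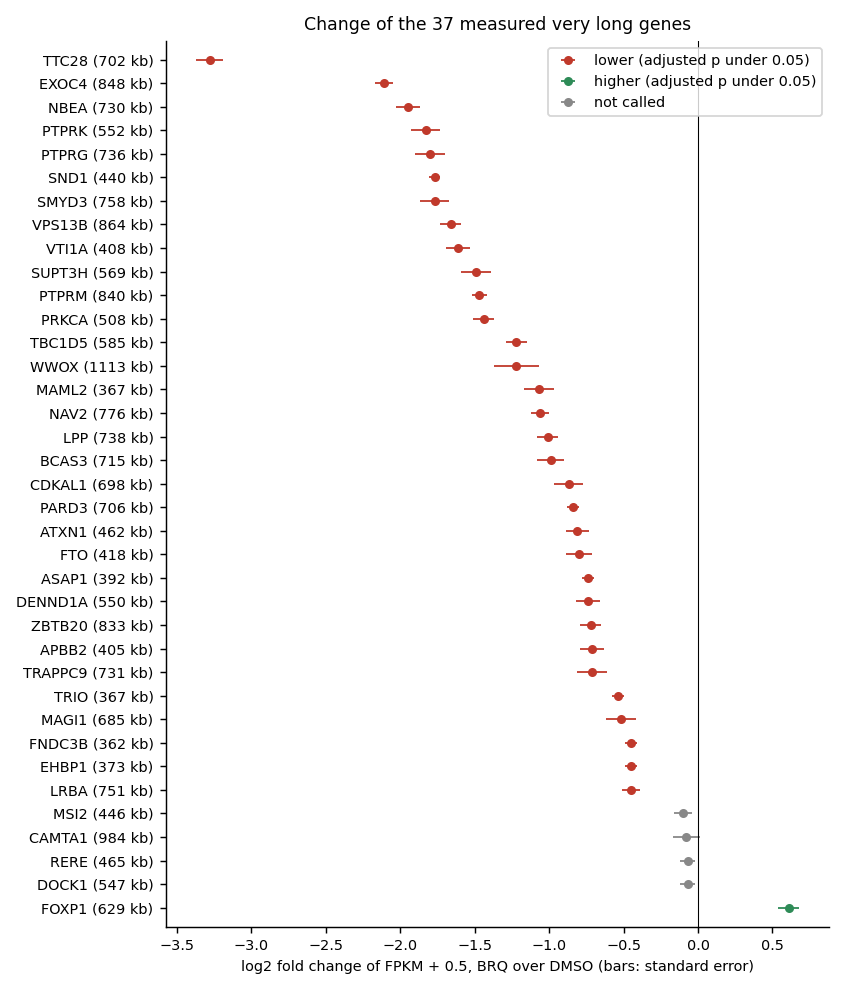
Log2 fold change of FPKM + 0.5 (BRQ over DMSO) with its standard error for the 37 measured very long genes, each labelled with its genomic span; colours give the call at a limma adjusted p under 0.05. Of the 37, 32 lie below 0 and were called, 4 lie near 0, and FOXP1 lies above.

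Across all tested genes the change went down with genomic span, up to the class of 400 to 800 kb. The median log2 fold change was 0.20 in 2570 genes under 10 kb, 0.14 in 3579 genes of 10 to 30 kb, 0.06 in 3938 of 30 to 100 kb and -0.08 in 1383 of 100 to 200 kb. Leaving the members out, it was -0.28 in 576 genes of 200 to 400 kb, -0.58 in 138 of 400 to 800 kb and -0.47 in 28 of 800 kb and over. The RefSeq span of some of these genes far exceeds their longest coding transcript in GENCODE. Examples are RANBP2 (1123 kb against 66.3 kb, log2 fold change -0.35) and CAST (813 kb against 112 kb, 0.55). How far such genes shift the medians of the longest classes was not tested. The share called lower was 27.7% in the shortest class and 71.0% and 64.3% in the longest 2 classes. The falls were not limited to the listed members: of the 210 other tested genes at least as long as the shortest member, 150 fell (71.4%) and 36 rose, with a median of -0.55. Of the 37 measured members 30 lay below the median of the other genes in their span class, by up to 2.70 on the log2 scale in TTC28, and 7 lay above. Since the list was made with results of this comparison known, this order is a description and no independent evidence. Over all tested genes Spearman's rank correlation between span and log2 fold change was -0.20 across 12249 genes, a weak relation between genes that share the same 6 libraries. The correlation was -0.21 with exon number, -0.19 with the gene length behind the FPKM and -0.18 with mRNA length. Over all tested genes span thus did not stand out. With the DMSO mean, which itself enters the fold change, the correlation was -0.26. Among tested genes of 100 kb and over the correlation was -0.25 with span and -0.23 with the longest intron. There it was -0.1 with exon number, -0.13 with the gene length behind the FPKM, -0.14 with mRNA length and -0.26 with the DMSO mean.

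**Figure D3:**
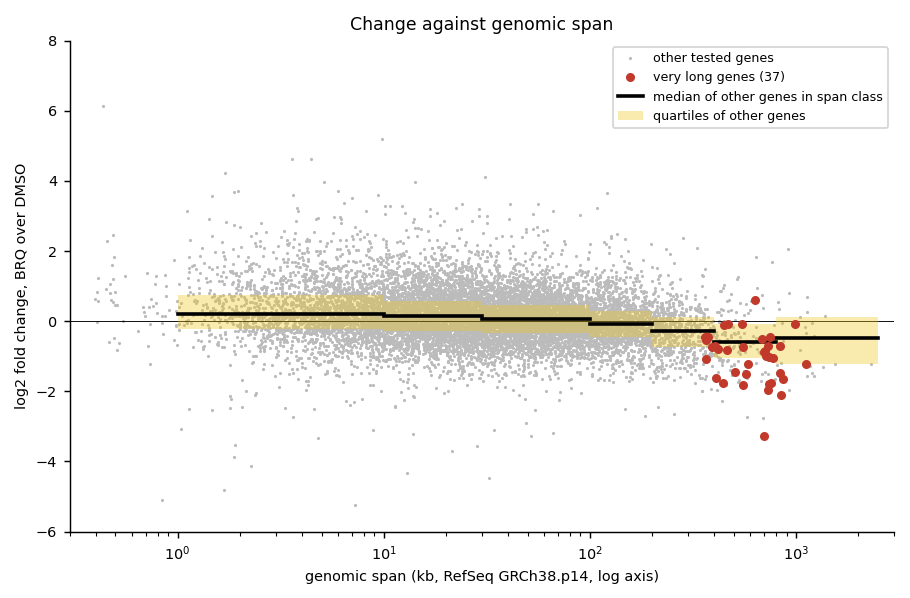
Log2 fold change (BRQ over DMSO) against genomic span on a log axis, with grey points for other tested genes, red points for the 37 measured very long genes, and black bars and shading for the median and quartiles of the other genes in each span class. The median goes from 0.20 under 10 kb to -0.58 at 400 to 800 kb. Most red points, from a list made with results known, lie below these medians.

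Span and mRNA length go together, so both were laid out side by side. Among genes whose counted length was 6000 bases or more, the median log2 fold change was 0.03 for a span under 30 kb, 0.02 for 30 to 100 kb, -0.18 for 100 to 400 kb and -0.63 for 400 kb and over. Among genes of 3000 to 6000 bases it was 0.09, 0.07, -0.03 and -0.74 over the same spans, the last in 26 genes. Under 30 kb the median was 0.22, 0.09 and 0.03 for counted lengths under 3000, 3000 to 6000 and at least 6000 bases, a smaller step than along span. Among tested genes of 400 kb and over the share called lower was 63.6% of 77 genes with a mean under 2 FPKM, 77.2% of 92 genes of 2 to 10 FPKM and 79.3% of 29 genes of at least 10 FPKM.

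Among the 37 measured members themselves span ordered the change only loosely (Spearman's rank correlation -0.30 with span, -0.25 with the longest intron). Among these members the number of transcript starts in GENCODE went with a smaller fall (rank correlation 0.40, and 0.35 without FOXP1), and exon number did not (0.06). Outside the list no such relation with starts was seen. The rank correlation was -0.02 over all tested genes and 0.03 among those of 100 kb and over. These are descriptions over genes that share libraries. TTC28, PARD3 and CDKAL1 span 698 to 706 kb and had log2 fold changes of -3.28, -0.84 and -0.87. TTC28, the member with the largest fall, thus differed from genes of nearly equal span by more than the errors. PARD3 and CDKAL1 lay within their errors of each other.

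Set beside their shorter paralogs, members had the lower log2 fold change in most pairs. The members had been listed with results of this comparison known, so this order is a description and no independent evidence about length. In 31 pairs with both genes tested, covering 25 members and 29 paralogs, the member had the lower log2 fold change in 25. The paralogs of under 100 kb were split, with 8 lower and 8 higher of 19 and a median of -0.06, near the shares over all tested genes (35.4% lower and 44.3% higher). Of the 10 paralogs of 100 kb and over 8 were lower, with a median of -0.44. PTPRU, a 90.3 kb receptor phosphatase related to PTPRK and PTPRM, averaged 5.03 ± 0.486 FPKM in BRQ and 1.69 ± 0.0964 FPKM in DMSO (SD, n = 3 each; log2 fold change 1.33, limma adjusted p = 1.9e-07), opposite to both relatives. SMYD2, 56.0 kb long, averaged 30.7 ± 1.27 FPKM in BRQ and 13.3 ± 1.14 FPKM in DMSO (1.18), while SMYD3 fell. The member fell and the paralog rose also for VTI1A (-1.61) with the 27.5 kb VTI1B (0.77) and for LPP (-1.01) with the 9.77 kb ZYX (0.61), pairs named after their values were seen.

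In 6 of the 31 pairs the order was the other way. FNDC3A, which at 234 kb is shorter than FNDC3B, averaged 15.2 ± 0.757 FPKM in BRQ and 47.4 ± 1.41 FPKM in DMSO (SD, n = 3 each; log2 fold change -1.61, against -0.45 for FNDC3B). DOCK5 averaged 18.4 ± 0.282 FPKM in BRQ and 35.4 ± 0.337 FPKM in DMSO (-0.92), while DOCK1 was not called. The paralogs of the other members that were not called, ATN1, CAMTA2 and MSI1, had lower log2 fold changes than RERE, CAMTA1 and MSI2. MSI1, at 0.16 ± 0.0456 FPKM in BRQ and 0.544 ± 0.0316 FPKM in DMSO, passed the filter only through DMSO and lies at its limit. MAGI3 and MAGI1 had nearly the same change (-0.56 and -0.52). The differences within pairs were not tested.

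**Figure D4:**
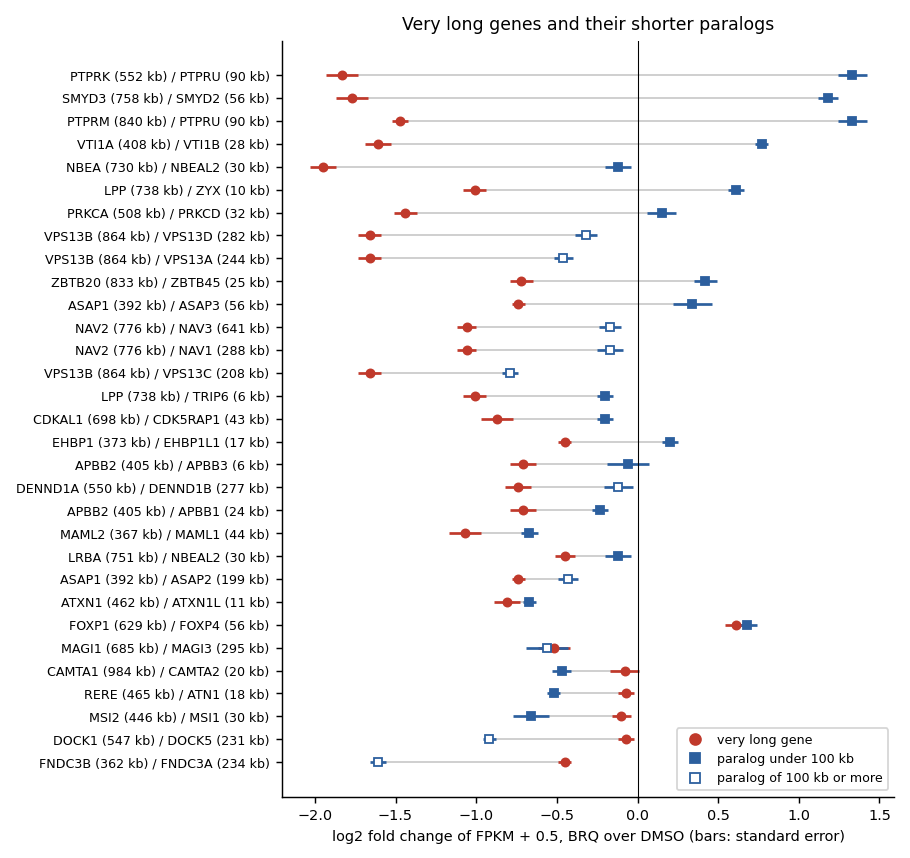
Log2 fold change of FPKM + 0.5 (BRQ over DMSO) with standard errors for 31 pairs of a very long gene (circles) and a shorter paralog (squares, filled under 100 kb), ordered by the difference within the pair. In the upper 25 rows the very long gene lies to the left of its paralog, most widely for PTPRK and PTPRU (-1.83 and 1.33).

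Genes of the elongation machinery moved both ways. Of the 50 listed, which start with the kinase complex P-TEFb and include its inhibitors, the pausing and PAF complexes, histone chaperones and topoisomerases, all were tested, 20 fell (40%), 22 rose (44.0%) and 8 passed in neither direction. Over all tested genes 35.4% fell and 44.3% rose. The median log2 fold change of the 50 was 0.01, against 0.07 over all tested genes. The balance depended on the scaling, with 26 lower and 15 higher under TMM factors and 23 lower and 20 higher under quantile normalization. The inhibitory side of P-TEFb was higher: HEXIM1, which with 7SK RNA holds P-TEFb inactive, averaged 71.7 ± 3.11 FPKM in BRQ and 16.3 ± 0.425 FPKM in DMSO (SD, n = 3 each). MEPCE, which caps that RNA, averaged 40.1 ± 1.87 FPKM in BRQ and 13.1 ± 1.33 FPKM in DMSO (log2 fold change 1.58). The P-TEFb kinase CDK9 had 19.4, 18.9 and 18.3 FPKM in BRQ and 15.5, 16.9 and 16.0 FPKM in DMSO (0.22, adjusted p = 0.00137), a call that ended with TMM factors (limma adjusted p = 0.0572), and the cyclin gene CCNT2, named after its value was seen, fell by 1.28.

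Among the factors that travel with the polymerase, SUPT6H, a histone chaperone, had 37.2, 36.1 and 33.9 FPKM in BRQ, against 55.5, 56.6 and 57.7 FPKM in DMSO (log2 fold change -0.66). CDK12, a kinase of the polymerase tail that is known to protect long genes from early cleavage, had 10.0, 10.3 and 10.7 FPKM in BRQ and 15.7, 16.2 and 15.5 FPKM in DMSO (-0.59). MLLT1, a reader of histone acylation in the super elongation complex, had 5.24, 4.46 and 4.45 FPKM in BRQ and 12.1, 11.3 and 13.1 FPKM in DMSO (-1.28). SUPT5H, the large subunit of the DSIF pausing factor, averaged 97.0 ± 5.62 FPKM in BRQ and 104 ± 5.38 FPKM in DMSO (SD, n = 3 each; -0.11, limma adjusted p = 0.0633). ELL3, an elongation factor of the ELL family, had 4.17, 3.89 and 4.24 FPKM in BRQ and 0.390, 0.596 and 0.380 FPKM in DMSO (2.28, adjusted p = 1.79e-08). ELL3 reached 0.5 FPKM in only 1 DMSO library, so it passed the filter only through BRQ, as did EAF2, another elongation gene that rose.

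TOP1 and TOP2B, topoisomerases that relieve torsion ahead of the polymerase and whose inhibition is known to lower very long genes in neurons, were higher in BRQ. TOP1 had 100, 104 and 101 FPKM in BRQ, against 63.5, 63.0 and 62.6 FPKM in DMSO (log2 fold change 0.69, SE 0.03, adjusted p = 1.02e-08). TOP2B had 23.3, 24.1 and 24.8 FPKM in BRQ and 17.2, 16.4 and 17.9 FPKM in DMSO (0.48, SE 0.05). TOP2A, the topoisomerase of dividing cells, had 52.1, 49.4 and 52.0 FPKM in BRQ and 48.5, 51.8 and 48.2 FPKM in DMSO, with overlapping groups (0.05, limma adjusted p = 0.287). These are mRNA levels and say nothing of the proteins' activity.

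**Figure D5:**
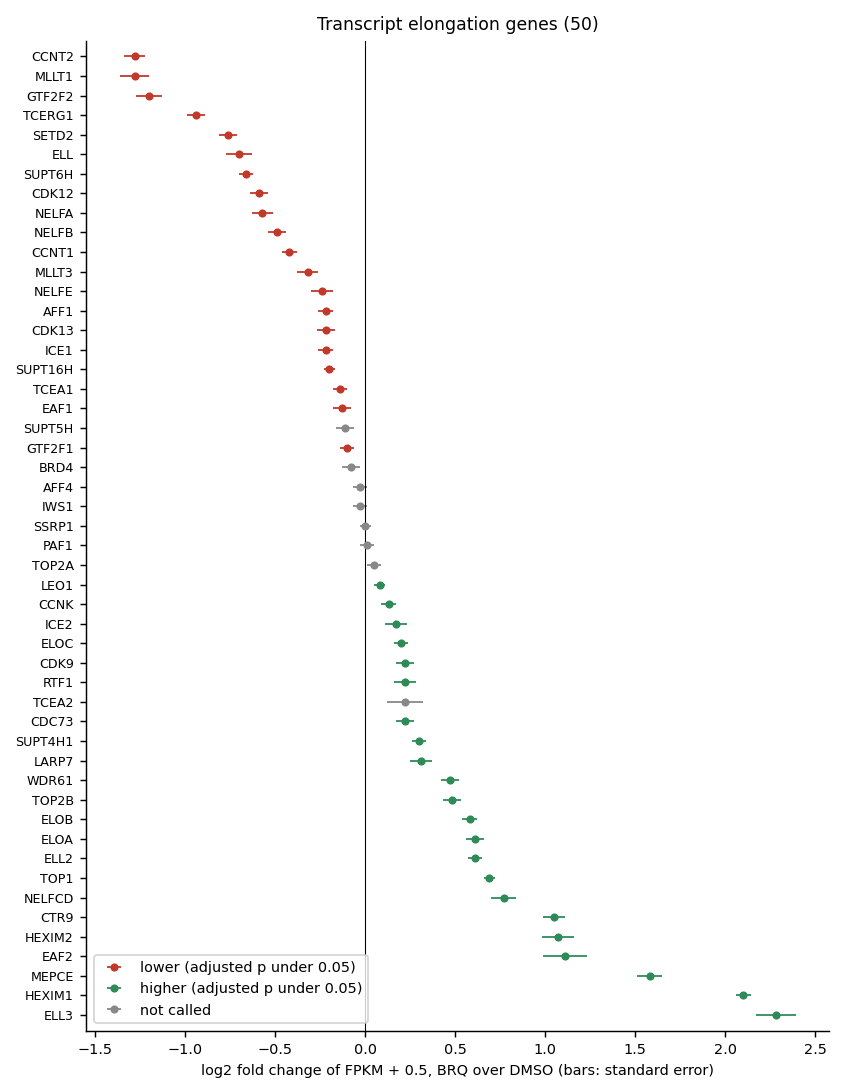
Log2 fold change of FPKM + 0.5 (BRQ over DMSO) with its standard error for 50 transcript elongation genes, coloured by the call at a limma adjusted p under 0.05. The values run from -1.28 for CCNT2 and MLLT1 to 2.28 for ELL3, with 20 called lower and 22 higher.

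Genes of 3' end cleavage and polyadenylation, together with the U1 snRNP proteins that are known to hold off early cleavage in introns, were also mixed. Of 28 listed and tested, 14 fell (50%), 9 rose (32.1%) and 5 passed in neither direction, beside 35.4% lower and 44.3% higher over all tested genes, and the median log2 fold change was -0.12. Of the U1 snRNP proteins listed, SNRNP70 rose (log2 fold change 0.29), SNRPC was not called (0.06) and SNRPA fell. SNRPA had 37.1, 33.1 and 33.6 FPKM in BRQ, against 74.8, 77.6 and 75.2 FPKM in DMSO (-1.12). In contrast the poly(A) polymerase PAPOLA averaged 65.7 ± 1.18 FPKM in BRQ and 33.6 ± 0.527 FPKM in DMSO (SD, n = 3 each; 0.96), RBBP6, a ubiquitin ligase of the cleavage complex, rose by 1.07 and the cleavage stimulation factor CSTF3 by 0.94 on the log2 scale.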

How the data were processed

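RNA of 6 A549 libraries was sequenced, 3 given BRQ and 3 given DMSO, grouped by the treatment in the labels. The authors deposited 1 table of FPKM values (fragments per kilobase of gene length scaled to the counted total, per the name of the deposited table), with 1 column per library. Tools named in the submitters' processing notes are fastp and HTSeq, with hg38 as build; the strand setting, like the aligner and annotation, is not given in the sources used, so reads of overlapping antisense genes may be shared. Library totals, reads and gene lengths were worked back from the steps between FPKM values (within 0.01 of a whole read for 100.0% of 17335 genes); they serve for depth, counting and 1 alternative.

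The test was limma's (version 3.58.1, R 4.3.3, eBayes with trend, group as the only term) on log2(FPKM + 0.5). It covered the 12258 genes that reached 0.5 FPKM in 3 or more libraries, two-sided, with Benjamini-Hochberg adjustment over all of them and a threshold of 0.05. The fit and the recovery of reads were tested on simulated data. Spans come from RefSeq (GRCh38.p14; 17290 genes found by Entrez ID) and exons from GENCODE release 29, matched by symbol for 16875. Levels are means ± SD over 3 libraries. Python 3.11.15 with pandas 2.3.3, numpy 2.4.6 and matplotlib 3.10.9 made tables and figures. Named genes are all members, up to 4 called genes with the largest change per further list with 7 fixed elongation genes, the 3 lowest and 3 highest other genes of at least 500 kb whose mean reached 1 FPKM, and up to 4 genes inside a member; others were named after their values were seen. The members and lists were chosen with earlier results of these data known. Since the table holds FPKM and no counts, reads worked back from it entered only the limma-voom alternative.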

Additional observations from a re-analysis of the deposited data

How the results depend on the processing

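Over 16 alternatives 30 to 35 very long genes were called lower and 1 higher, against 32 and 1 reported. They were pseudocounts of 0.1 and 1, limma-voom on recovered reads, a replicate block, array weights, quantile normalization, TMM factors, other filters, no trend and leaving out each library. With the replicate number as a block 32 very long genes, 19 elongation genes, 14 genes of 3' end processing and 16 shorter paralogs were lower, and 1, 21, 9 and 8 were higher. The replicate numbers did not pair the libraries (correlations of same-numbered deviations from the group means -0.0378 to -0.00831). No member changed direction, 579 of 585 values for members kept their call, and the other 6 were added falls of DOCK1, RERE, MSI2 and CAMTA1 with TMM factors (log2 fold changes -0.18, -0.19 and -0.21 for the first 3), quantile normalization (MSI2 -0.14, CAMTA1 -0.34) or limma-voom (MSI2 -0.11). With TMM factors 26 elongation genes were lower and 15 higher, and with quantile normalization 23 and 20. TMM factors moved the median of all tested genes to -0.04, against 0.07 without them. SUPT5H was called lower under 6 alternatives (log2 fold changes -0.11 to -0.23). Leaving out 1 library at a time gave 30 to 32 lower very long genes, 18 to 21 lower and 20 to 21 higher elongation genes, 12 to 14 lower 3' end genes, and 15 to 17 lower and 7 to 8 higher paralogs. The count of 30 came with a DMSO library left out, when SMYD3 and SUPT3H missed the filter and 35 members, not 37, were tested. In those fits 29 paralogs were tested, not 30. WWOX and SUPT3H rest on the fewest reads of the measured members named here, and no position along a gene can be read from gene totals.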

Other observations

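Very long genes outside the list mostly fell, though some rose. Of 91 other tested genes of at least 500 kb, 65 fell (71.4%) and 19 rose (20.9%), beside 35.4% and 44.3% of all tested genes. The median log2 fold change of FPKM + 0.5 of these 91 was -0.59. The lowest 3 with a mean of at least 1 FPKM were adhesion and cytoskeleton genes. CDH4, R-cadherin, averaged 1.12 ± 0.142 FPKM in BRQ and 10.4 ± 0.384 FPKM in DMSO (SD, n = 3 each; -2.75). KIRREL3, an adhesion molecule of the immunoglobulin superfamily, averaged 0.369 ± 0.117 FPKM in BRQ and 5.22 ± 0.411 FPKM in DMSO (-2.73), and it passed the filter only through DMSO. DIAPH2, a formin, averaged 1.59 ± 0.189 FPKM in BRQ and 7.57 ± 0.398 FPKM in DMSO (-1.95). The highest 3 were HDAC9, RARB and ANXA8. The histone deacetylase gene HDAC9 spans 916 kb and averaged 3.83 ± 0.268 FPKM in BRQ and 0.542 ± 0.0973 FPKM in DMSO (2.06). The longest coding transcript of HDAC9 in GENCODE spans 580 kb, and only 2 DMSO libraries reached 0.5 FPKM, so it needed BRQ to pass the filter. The retinoic acid receptor gene RARB spans 769 kb and averaged 7.23 ± 0.315 FPKM in BRQ and 1.92 ± 0.409 FPKM in DMSO (1.69), while its longest coding transcript in GENCODE spans 170 kb. For ANXA8, an annexin, the longest coding transcript spans 23.9 kb of a listed 524 kb, and the gene has near-identical copies, so its rise (1.27) is uncertain.

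Short genes that lie within a member were also read out. LRRN3, a leucine-rich repeat membrane protein gene inside IMMP2L on the opposite strand, had 0.118, 0.0947 and 0.127 FPKM in BRQ, against 5.09, 4.87 and 4.5 FPKM in DMSO (log2 fold change -3.12, SE 0.09), and passed the filter only through DMSO. INSYN2A, inside DOCK1, had 1.68, 1.34 and 1.48 FPKM in BRQ and 1.24, 0.925 and 1.11 FPKM in DMSO (0.33, limma adjusted p = 0.0168). That call was lost with TMM factors, quantile normalization and without BRQ replicate 1 or DMSO replicate 2, where the limma adjusted p was 0.0613, 0.479, 0.0752 and 0.0663.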
